A study of Homo sapiens with 5 samples.

Results

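EIF6 and the factors that finish and release the large ribosomal subunit form a group of 10 genes chosen by name, of 17297 gene rows in the table. They are EIF6, SBDS, EFL1, NMD3, LSG1, ZNF622, MRTO4, RSL24D1, NIP7 and TRMT112, and all 10 were counted and passed the filter on low counts. Ribosome-protected fragments, the pieces of mRNA that a ribosome shields from nuclease, were counted per gene in cells of HCT116, which is an established line from a human colorectal carcinoma. The MUT group (3 libraries) carries the homozygous eIF6 change N106S, asparagine to serine at residue 106, made by CRISPR/Cas9 editing. The WT group (2 libraries) is labelled wild type. The study's title links eIF6 with ribosomal subunits, mitotic exit and cancer growth. The edited cells are described as clones, and the labels do not say which clone gave which MUT library. Nothing in the labels says that replicates were grown separately, so the p-values here measure library-to-library spread, which may be technical.

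eIF6 binds the face of the large (60S) subunit that meets the small (40S) subunit and keeps the subunits apart. In the cytoplasm SBDS, the protein altered in Shwachman-Diamond syndrome, and the GTPase EFL1 evict eIF6, and other factors leave the maturing subunit in a set order. Of the group's other proteins, some carry the subunit out of the nucleus or free it of export factors in the cytoplasm. Others hold the place of ribosomal proteins that join late, or act away from the release step.

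Of the 10 genes, 1 changed: footprints on RSL24D1 were 1.47-fold lower in MUT cells. EIF6 itself, SBDS and EFL1 did not pass the test, and their 95% intervals reached no lower than 0.692-fold (EFL1) and no higher than 1.24-fold (SBDS). The largest positive values belonged to ZNF622 and LSG1, at log2 fold changes of 0.48 and 0.28, and missed the threshold. A gene's call rests on an adjusted p under 0.05 in edgeR's quasi-likelihood test over all 11991 genes that passed the filter. In that test 22.9% of genes were called, 10.0% higher and 12.9% lower, so 1 call among 10 genes is not a large share.

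Library totals ran from 3076137 to 3821176 counts in MUT and from 2095217 to 3128144 in WT. Between any pair of libraries, counts differed beyond sampling noise (chi-square of 1.91 to 8.06 per gene). Levels are CPM, a gene's share of its library's counts after scaling between libraries, so each change is relative to the other genes. Scaling matters for the split of calls over all genes: 1203 were higher and 1544 lower, against 1558 and 1209 with upper-quartile scaling and 1756 and 1040 with library size only. Epithelial markers (EPCAM, KRT8, KRT18, CDH1, VIL1, CDX2) summed to between 693 and 884 CPM in MUT and between 663 and 737 CPM in WT, a sum carried by KRT8 and KRT18. VIL1 had only 1 count in all. EPCAM and CDH1 went the other way, without overlap: EPCAM had 52.5, 65.0 and 48.8 CPM in MUT and 72.9 and 83.0 CPM in WT, and CDH1 had 8.91, 12.1 and 12.6 CPM in MUT and 21.5 and 20.9 CPM in WT. The part of these shifts in the results was not tested. Fibroblast, immune and endothelial markers each summed to at most 8.99 CPM in any library. RNA-seq libraries were not analysed here, so altered mRNA amount and altered ribosome load cannot be told apart. In these bulk lysates, fewer cells translating an mRNA and fewer footprints per cell cannot be told apart either. Levels of different genes are not compared, since coding lengths were not used here.

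The starts of 5 of the genes are shown to compare the bases around the annotated starts of their mRNAs. A run of pyrimidine bases that begins the mRNA with a cytosine is the TOP motif of ribosomal protein mRNAs. It is one way mRNAs of the translation machinery resemble each other. Each is 30 bases of RefSeq's GRCh38.p14, 10 before the annotated start and 20 from it, with the longest run of pyrimidines in capitals.
RSL24D1 (chr15:55196922-55196951, minus strand): gggttgcatcaCTTCCTCTCaagcttggcg
NMD3 (chr3:161221301-161221330, plus strand): gcgagaTCTTCTCTgtggcggagacagcca
ZNF622 (chr5:16465781-16465810, minus strand): aagTTTCCTCagtgacaatcaggaagtcgg
EIF6 (chr20:35284753-35284782, minus strand): CTTTTTagggagtccaaggtacagtcgccg
SBDS (chr7:66995567-66995596, minus strand): taagCCTgccagacacactgtgacggctgc
RSL24D1 had the longest run of the 10 genes, 9 bases that begin with a cytosine at base 2 of the annotated mRNA. NMD3 followed with 8 bases across the start, and SBDS had the shortest run, 3 bases. The marked runs of EIF6, ZNF622 and SBDS lie wholly before the annotated start, so they are not part of the annotated mRNA. Of the genes not shown, EFL1, MRTO4, NIP7 and LSG1 had runs of 6, 6, 5 and 4 bases. These runs lie within the annotated mRNA, from bases 12, 5, 3 and 7. TRMT112 had a run of 5 bases, wholly before the start. Of 15843 protein-coding genes with such a window, 8.70% held a run of at least 9 anywhere in its 30 bases, before or after the start. Of the 853 tested genes with such a run, 161 (18.9%) were lower in MUT and 64 higher, against 12.8% lower and 10.1% higher of all 9764 tested genes with a window. The cut of 9 is the run length of RSL24D1 itself, which is among the 161. With a cut of 5 the share lower was 14.7%, and with a cut of 8 it was 18.3%. The run was looked at after the fold changes were known, and annotated starts can lie a few bases from the used ones. For NMD3 the start taken, base 161221311, lies inside a gene span that begins at 161221102. For TRMT112, on the minus strand, the start taken was 64317990 in a span that begins at 64318596.

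The windows from 250 bases before the start to 50 after it were searched for CCGGAA on either strand, the core that ETS transcription factors bind, which was chosen after the windows were read. It was present for 7 of the 10 genes and absent for SBDS, NMD3 and MRTO4, while 22.7% of all 15843 windows and 30.9% of those of tested genes held it. The E-box CACGTG, the site of MYC and related factors, was in 1 of the 10 windows, that of MRTO4, in 8.82% of all windows and in 10.2% of those of tested genes. The 250 bases before the start are printed for the genes with the lowest and the highest log2 fold change, RSL24D1 and ZNF622, with the CCGGAA cores in capitals.
RSL24D1 (chr15:55196942-55197191, minus strand, GRCh38.p14): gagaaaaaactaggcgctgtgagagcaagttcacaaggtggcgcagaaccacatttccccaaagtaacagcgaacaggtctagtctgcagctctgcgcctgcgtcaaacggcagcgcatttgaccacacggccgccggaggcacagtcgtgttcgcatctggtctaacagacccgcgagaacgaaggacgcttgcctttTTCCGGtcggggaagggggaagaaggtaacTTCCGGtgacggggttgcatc
ZNF622 (chr5:16465801-16466050, minus strand, GRCh38.p14): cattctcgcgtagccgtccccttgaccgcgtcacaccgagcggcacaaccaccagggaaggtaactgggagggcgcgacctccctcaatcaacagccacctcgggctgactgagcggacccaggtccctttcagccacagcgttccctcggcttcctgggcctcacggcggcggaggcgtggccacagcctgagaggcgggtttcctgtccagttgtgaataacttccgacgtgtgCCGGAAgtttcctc
RSL24D1 held 2 cores and ZNF622 held 1, so the genes at both ends of the range of fold changes carry it. Among tested genes whose window held the core, 10.1% were higher and 13.1% lower in MUT, close to the shares over all tested genes with a window.

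Footprints on EIF6 (gene ID 3692, chromosome 20, 35278906 to 35284772, GRCh38.p14) stood at 149, 169 and 154 CPM in MUT replicates 1, 2 and 3, against 184 and 171 CPM in WT replicates 1 and 2. Every MUT library was below both WT libraries, with MUT replicate 2 only just below WT replicate 2. The means were 157 ± 10.7 CPM in MUT (SD, n = 3) and 178 ± 9.16 CPM in WT (SD, n = 2). The log2 fold change was -0.17 (SE 0.0971), with a 95% interval from -0.37 to 0.03 and edgeR's adjusted p at 0.215. The edit replaces a single residue, so the EIF6 count is no check of the labels. With the trend of gene density and gene span removed, the value was -0.28 and passed (adjusted p 0.0415 in edgeR). EIF6 has no pseudogene named after it in RefSeq and overlaps no other annotated gene. Pseudogenes so named exist for 7 of the 10 genes, among them EFL1 (2), NMD3 (2), NIP7 (3) and ZNF622 (1). EFL1 also overlaps RNU1-77P, and NMD3 overlaps SRP14P5. How reads shared with any of these were assigned was not stated.

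SBDS, the adaptor that docks on the 60S subunit beside eIF6, had 121, 123 and 126 CPM in the MUT libraries and 108 and 121 CPM in the WT libraries. MUT replicate 1 and WT replicate 2 were nearly level, at 121.2 and 121.0 CPM. The log2 fold change was 0.10 (SE 0.101, 95% interval -0.11 to 0.31, edgeR's adjusted p 0.508). SBDS has a pseudogene, SBDSP1, and the assignment of reads shared with it was not stated in the labels.

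EFL1, the GTPase related to the elongation factor eEF2 that works with SBDS, had 27.4, 27.9 and 23.3 CPM in MUT and 32.5 and 26.8 CPM in WT. The groups overlapped. With 65 to 106 counts per library it was the thinnest of the 10 genes beside ZNF622. Its log2 fold change of -0.16 had an SE of 0.18 and a 95% interval from -0.53 to 0.21 (edgeR's adjusted p 0.549). Its interval on the linear scale, from 0.692-fold to 1.15-fold, was wider than those of EIF6 and SBDS. EEF2, the elongation factor itself, had 1845, 1864 and 1817 CPM in MUT and 1856 and 1510 CPM in WT, so the groups overlapped, and its log2 fold change of 0.13 did not pass (edgeR's adjusted p 0.394). Without WT replicate 1 EEF2 stood at 0.28 and passed (adjusted p 0.0436).

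**Figure D1:**
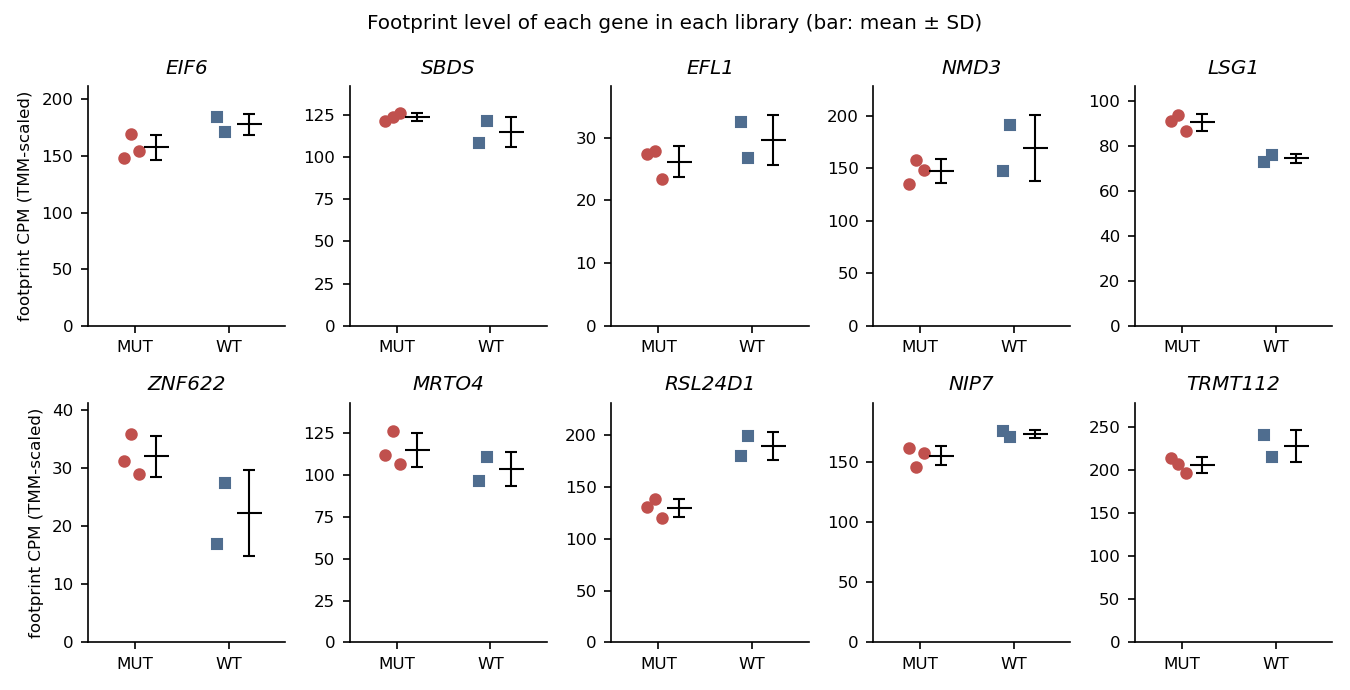
Footprint level (CPM after TMM scaling, linear axes from 0) of each of the 10 genes in each MUT library (circles) and each WT library (squares), with the mean ± SD of the group as a bar (n = 3 MUT and 2 WT). RSL24D1 shows a gap between the groups, at 120 to 138 CPM in MUT and 180 to 198 CPM in WT, as does LSG1 the other way, at 86.5 to 93.7 CPM in MUT and 72.9 to 75.9 CPM in WT.

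NMD3 is the adaptor through which the exporter XPO1 takes the 60S subunit out of the nucleus. It had 136, 158 and 148 CPM in MUT, against 147 and 192 CPM in WT. The WT libraries differed 1.30-fold from each other, and WT replicate 1 lay within the MUT range. The log2 fold change of -0.21 (SE 0.108, edgeR's adjusted p 0.155) rested on which WT library was used. It was -0.38 and passed without WT replicate 1 (adjusted p 0.0336), and 0.01 without WT replicate 2 (adjusted p 0.976).

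LSG1, the cytoplasmic GTPase that frees NMD3 from the exported subunit, had 91.0, 93.7 and 86.5 CPM in MUT and 72.9 and 75.9 CPM in WT. All MUT libraries were above both WT libraries, and each group was tight, at 90.4 ± 3.67 CPM in MUT (SD, n = 3) and 74.4 ± 2.08 CPM in WT (SD, n = 2). The log2 fold change of 0.28 (SE 0.113, 95% interval 0.04 to 0.51) had an unadjusted p of 0.0215 and an adjusted p of 0.0777 in edgeR. It passed with upper-quartile scaling (0.32, adjusted p 0.0395), with library size only (0.35, adjusted p 0.0279) and with the density and span trend removed (0.38, adjusted p 0.0179). LSG1 overlaps the antisense RNA gene TMEM44-AS2, and the labels do not state whether counting used strand.

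RSL24D1 and MRTO4 are placeholders. The yeast counterpart of RSL24D1, Rlp24, sits where ribosomal protein RPL24 (eL24) later binds, close to eIF6, and the yeast counterpart of MRTO4, Mrt4, sits where the stalk protein RPLP0 later binds. RSL24D1 (gene ID 51187, chromosome 15, 55180806 to 55196941, GRCh38.p14) had 130, 138 and 120 CPM in MUT libraries, against 180 and 198 CPM in WT libraries. The highest MUT library was well below the lowest WT library. The means were 129 ± 8.84 CPM in MUT (SD, n = 3) and 189 ± 13.2 CPM in WT (SD, n = 2). On the log2 scale the fold change was -0.55 (SE 0.0977, 95% interval -0.75 to -0.35), with an adjusted p of 0.000304 in edgeR. It was the 1 gene of the 10 called in all 16 alternative fits, where it ranged from -0.62 to -0.47 with adjusted p at or below 0.0237. Of all tested genes 5.45% had a lower log2 fold change. RSL24D1 has 11 pseudogenes in RefSeq, none with a row in the table, so its level depends on how reads of several possible origins were assigned.

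MRTO4 had 112, 126 and 106 CPM in MUT and 96.4 and 111 CPM in WT. The groups overlapped, and the log2 fold change was 0.14 (SE 0.11, 95% interval -0.09 to 0.36, edgeR's adjusted p 0.383). The 2 placeholders thus had values of opposite sign, with intervals that did not overlap. MRTO4 starts 281 bases from the start of EMC1, which runs the other way and encodes a subunit of the ER membrane complex. EMC1 had a log2 fold change of 0.95 and passed (adjusted p 7.12e-05 in edgeR). Head-to-head protein-coding partners within 1000 bases were also annotated for EFL1 (SAXO2), NIP7 (COG8) and TRMT112 (PRDX5), and these 3 did not pass. Such a partner was present for 4 of the 10 genes, for 10.2% of all protein-coding genes with a window and for 14.0% of the tested ones.

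**Figure D2:**
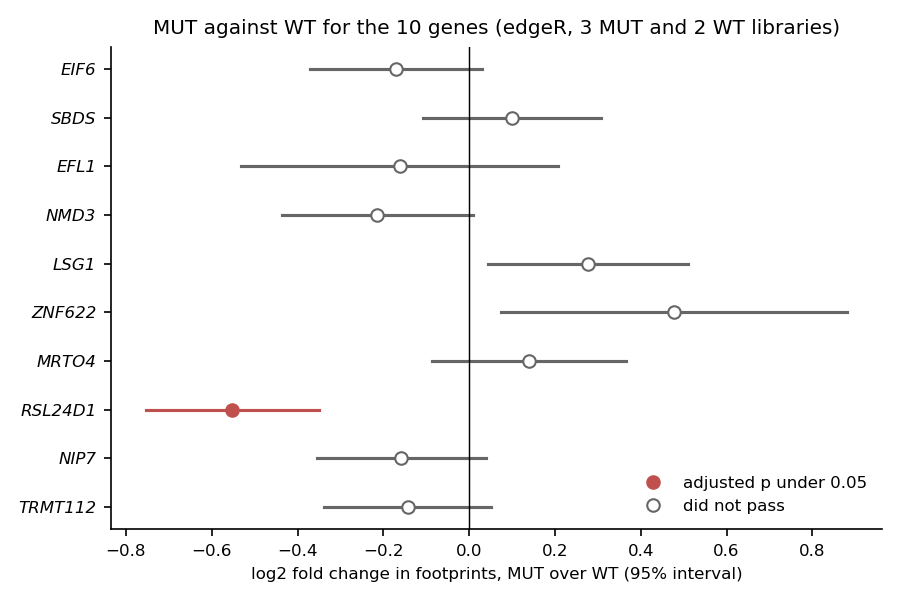
Log2 fold change in footprints of MUT over WT for each of the 10 genes (points) with its 95% interval (lines), from edgeR over 3 MUT and 2 WT libraries. The interval of RSL24D1, from -0.75 to -0.35, lies wholly below 0, and those of LSG1 and ZNF622 lie just above 0 although their adjusted p values miss the threshold.

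ZNF622, the human counterpart of yeast Rei1, a cytoplasmic factor that helps strip export proteins from the 60S subunit, had 31.2, 35.8 and 29.0 CPM in MUT and 17.0 and 27.5 CPM in WT. All MUT libraries were above both WT libraries, although MUT replicate 3 and WT replicate 2 were close. The log2 fold change of 0.48 (SE 0.196, 95% interval 0.07 to 0.88) had an unadjusted p of 0.0223 and an adjusted p of 0.08 in edgeR. WT replicate 1 held only 34 counts, with an exact Poisson 95% interval from 23.5 to 47.5, which covers counting error only. That library decided the size: the value was 0.92 without WT replicate 2 (adjusted p 0.0358) and 0.21 without WT replicate 1 (adjusted p 0.53). It passed with library size only (0.55, adjusted p 0.0461) and with the density and span trend removed (0.61, adjusted p 0.0277).

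NIP7 and TRMT112 act away from the release step. NIP7, a nucleolar protein needed for pre-rRNA processing, had 162, 146 and 158 CPM in MUT and 176 and 171 CPM in WT. All its MUT libraries lay below the WT libraries. The log2 fold change was -0.16 (SE 0.0952), short of the threshold (edgeR's adjusted p 0.242). TRMT112, the partner that stabilises several methyltransferases of rRNA, tRNA and proteins, had 214, 208 and 197 CPM in MUT and 241 and 215 CPM in WT. Its MUT libraries were also all below the WT libraries, with MUT replicate 1 and WT replicate 2 nearly level, and the log2 fold change was -0.14 (SE 0.0946, edgeR's adjusted p 0.287). With the density and span trend removed it was -0.27 and passed (adjusted p 0.0377 in edgeR). TRMT112 overlaps ESRRA and PRDX5 and has 8 pseudogenes, so its counts are uncertain.

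Across the 10 genes, 6 log2 fold changes were negative and 4 positive, with a median of -0.15, beside a median of 0.00 over all genes tested. The MUT and WT libraries did not overlap for 7 of the 10 genes, 4 with MUT below and 3 with MUT above, where 50.7% of all tested genes did not overlap. At an unadjusted p under 0.05 there were 3 (RSL24D1, LSG1 and ZNF622), against 35.8% of all genes. Across the settings, SBDS, EFL1, MRTO4 and NIP7 never passed.

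**Figure D3:**
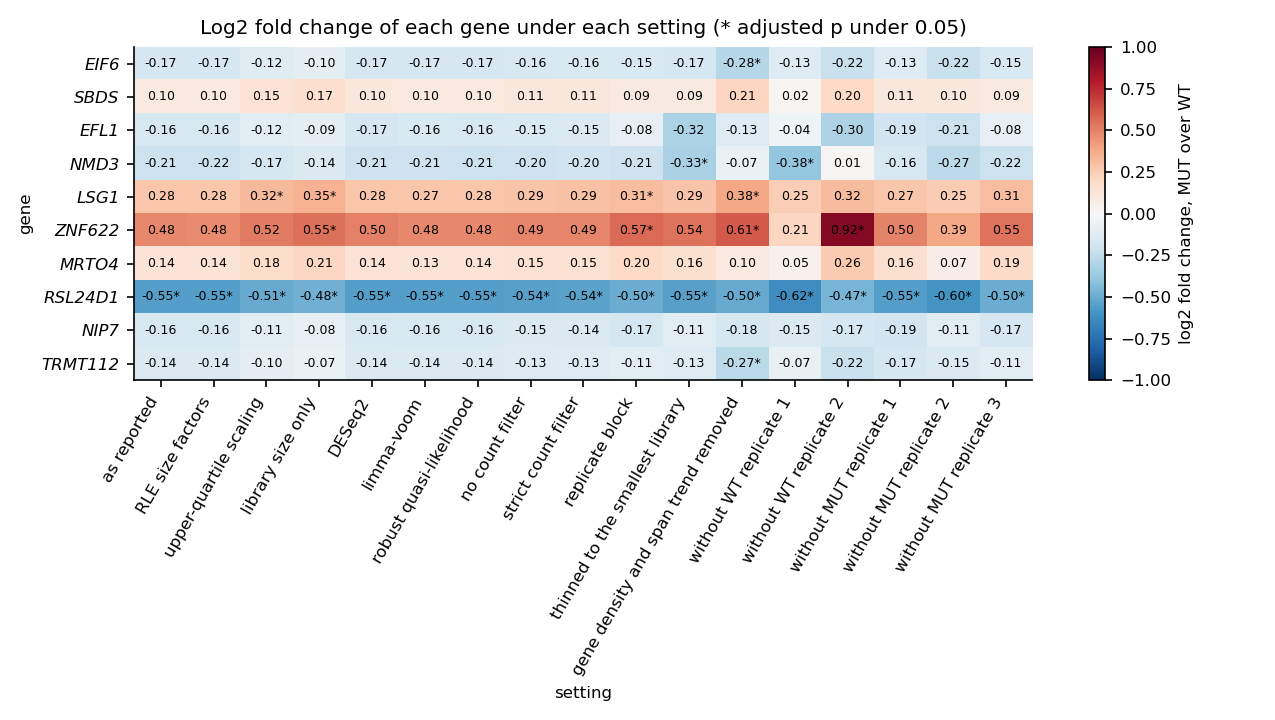
Log2 fold change of MUT over WT for each of the 10 genes (rows) as reported and under 16 alternative settings (columns), on a colour scale from blue (lower in MUT) to red (higher in MUT), with a star where the adjusted p was under 0.05. RSL24D1 carries a star in every column, and NMD3 runs from -0.38 without WT replicate 1 to 0.01 without WT replicate 2.

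Ratios between partners within a library do not depend on how libraries are scaled, and 7 were compared. The test permuted the library labels exactly and was two-sided, and the smallest p it can give with 3 and 2 libraries is 0.1. The groups did not overlap for 3 of the 7 ratios, and 50.7% of single tested genes did not overlap either. The share over other pairs of genes was not computed. The count of SBDS per count of EIF6 was 0.816, 0.729 and 0.814 in MUT, against 0.588 and 0.706 in WT, so each MUT library had more SBDS footprints per EIF6 footprint. The mean log2 difference was 0.29 (exact permutation p = 0.1, 0.233 adjusted over the 7 ratios). Leaving out WT replicate 1 gave 0.15, and leaving out WT replicate 2 gave 0.42. EFL1 per EIF6 did not move in this way: the ratios were 0.184, 0.165 and 0.151 in MUT and 0.176 and 0.156 in WT, a log2 difference of 0.00 (exact permutation p = 1).

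LSG1 per NMD3, the recycling GTPase against the adaptor it frees, was 0.671, 0.593 and 0.583 in MUT and 0.495 and 0.396 in WT. All MUT libraries were above both WT libraries, and the log2 difference was 0.47 (exact permutation p = 0.1, adjusted 0.233), or 1.39-fold. With WT replicate 2 alone as WT it was 0.63, and with WT replicate 1 alone 0.31. RSL24D1 per RPL24, the placeholder against the protein that takes its place, was 0.516, 0.549 and 0.553 in MUT and 0.586 and 0.761 in WT. This ratio was lower in every MUT library, with a log2 difference of -0.31 (exact permutation p = 0.1, adjusted 0.233), and the WT libraries were far apart: the difference was -0.50 against WT replicate 2 alone and -0.12 against WT replicate 1 alone. RPL24 itself had a log2 fold change of -0.23 (edgeR's adjusted p 0.0919). The groups overlapped for the remaining 4 ratios, among them MRTO4 per RPLP0 (log2 difference 0.20, exact permutation p = 0.6), SBDS per EFL1 (0.28, exact permutation p = 0.4) and EIF6 per RPL23 (0.19, exact permutation p = 0.4).

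**Figure D4:**
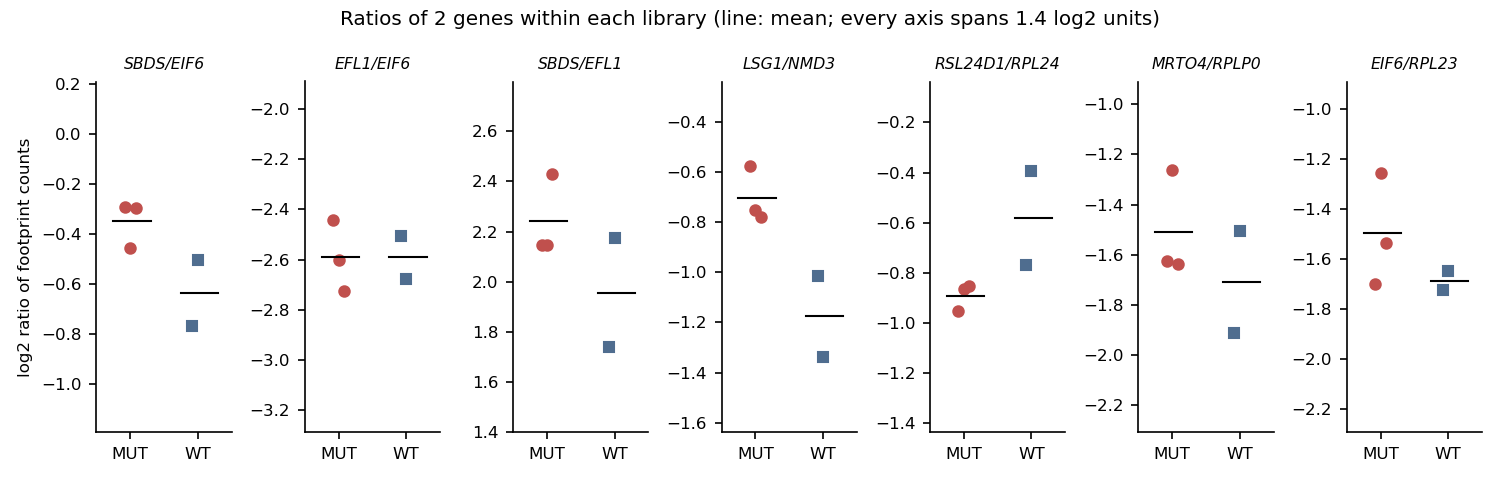
Log2 ratio of the footprint counts of 2 genes within each MUT library (circles) and each WT library (squares), with the group mean as a line and each axis spanning the same width. SBDS/EIF6 and LSG1/NMD3 are higher in all 3 MUT libraries than in both WT libraries, and RSL24D1/RPL24 is lower. Each of these had an exact permutation p of 0.1, the smallest that 3 and 2 libraries can give.

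Genes that act with the group were read from lists in the same fit. All lists were chosen with earlier results of these data known, so their counts are descriptions only. Among 16 other genes of cytoplasmic 60S maturation and export, 1 fell and 1 rose, with a median of -0.12. That is 6.25% each way, beside 12.9% lower and 10.0% higher over all genes tested. The exporter XPO1 had 375, 423 and 402 CPM in MUT and 465 and 539 CPM in WT (log2 fold change -0.33, edgeR's adjusted p 0.0164). RANGAP1, which drives the Ran cycle at the pore, rose (0.31, adjusted p 0.0404). The call of XPO1 ended without WT replicate 2 (-0.21, adjusted p 0.208), without MUT replicate 1 (0.12) and with the density and span trend removed (0.0887). Leaving out WT replicate 1 ended the call of RANGAP1 (0.16, adjusted p 0.404), as did 4 other fits. SPATA5, whose yeast counterpart removes Rlp24, and DUSP12, the counterpart of the yeast factor that removes Mrt4, did not pass (log2 fold changes -0.10 and 0.07), and were named after their values were seen.

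Of 51 nuclear 60S assembly genes 22 rose and 3 fell, with a median of 0.17, beside 10.0% higher and 12.9% lower over all genes. This list too was chosen with earlier results of these data known, so the comparison is no independent support for a rise. NOC2L, which accompanies early 60S particles, had 85.9, 90.3 and 92.6 CPM in MUT and 48.4 and 51.7 CPM in WT. NOP2, a 28S rRNA methyltransferase, FTSJ3, an RNA methyltransferase of pre-ribosomes, and SENP3, a SUMO protease, rose 1.82-fold, 1.81-fold and 1.64-fold. NOC2L overlaps SAMD11 among other genes, FTSJ3 overlaps PSMC5, and SENP3 overlaps SENP3-EIF4A1. The 3 genes that fell were NSA2, TMA16 and NPM1, at log2 fold changes of -0.49, -0.66 and -0.31, and were named after their values were seen. With DESeq2 14 rose, and 14 or 11 rose when WT replicate 1 or WT replicate 2 was left out. The 10 genes had 0 rises in the same fit, although whether their share differs from that of the assembly list was not tested.

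Footprints on the genes of proteins that the group docks on or makes way for were lower where they passed. Protein levels were not measured here. Of 9 such ribosomal protein genes 4 (44.4%) fell and 0 rose, with a median of -0.23. Over all genes tested 12.9% fell and 10.0% rose. RPL23 (uL14), the main docking protein of eIF6, had 483, 405 and 448 CPM in MUT and 609 and 537 CPM in WT (log2 fold change -0.36, edgeR's adjusted p 0.0107). Footprints on the genes of the stalk proteins RPLP1 and RPLP2 and the stalk-base protein RPL12 fell too (-0.42, -0.29 and -0.60). RPLP0 did not pass (-0.05, edgeR's adjusted p 0.757) and was at 0.026 with library size only. Without WT replicate 1 none of these 9 passed, and RPL12 stood at 632 CPM in that library against 413 CPM in WT replicate 2. With DESeq2, without MUT replicate 1 or without MUT replicate 2, 2 of the 4 passed. RPLP2 was the least firm of them, called in 10 of 16 alternatives and not with upper-quartile scaling (adjusted p 0.0554) or library size only (0.0718). RPL12 has 50 pseudogenes in RefSeq, RPLP1 has 13, RPL23 has 10 and RPLP2 has 5, so these values are uncertain.

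Of 7 methyltransferase genes whose products bind TRMT112, METTL5 fell and none rose, a share near the 12.9% of all tested genes that fell. METTL5, which methylates 18S rRNA, had 91.6, 80.0 and 92.1 CPM in MUT and 121 and 133 CPM in WT (log2 fold change -0.54, edgeR's adjusted p 0.000931), and it was called in all 16 alternatives. It overlaps SSB. The list's median was -0.22.

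Subunit joining can follow the removal of eIF6, and splitting separates joined subunits again. Among 14 genes of these steps, 6 (42.9%) fell and 1 (7.14%) rose, with a median of -0.21. Over all genes tested 12.9% fell and 10.0% rose. EIF1AX, which helps scan for the start codon and recruit eIF5B, EIF2S3, a subunit of the initiator tRNA carrier, and DENR, a recycling factor, fell (-0.39, -0.37 and -0.34). PELO, which splits stalled ribosomes, had 103, 97.4 and 91.6 CPM in MUT and 66.9 and 61.8 CPM in WT (log2 fold change 0.60, edgeR's adjusted p 0.000773). It lies inside ITGA1. With upper-quartile scaling or library size only, 3 fell and 2 rose. Leaving out a WT library left 2 that fell in either case, leaving out MUT replicate 1 left 1, and leaving out MUT replicate 3 left 3. The call of EIF1AX ended without WT replicate 2 (adjusted p 0.0519) and with the density and span trend removed (0.0557), DENR without WT replicate 1 (0.0691) and without MUT replicate 1 (0.0516), and EIF2S3 without MUT replicate 1 (0.0719).

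Of 11 tested genes for proteins that modify or bind eIF6, 4 (36.4%) rose and 1 (9.09%) fell, with a median of 0.05. Over all genes tested 10.0% rose and 12.9% fell. PRKCB was not tested for low counts. ITGB4, the integrin beta 4 subunit whose tail binds eIF6, had 99.9, 85.8 and 92.1 CPM in MUT and 46.9 and 49.4 CPM in WT (log2 fold change 0.94, edgeR's adjusted p 1.50e-05). PPP3CA, the catalytic subunit of the phosphatase calcineurin, had 266, 242 and 267 CPM in MUT and 360 and 388 CPM in WT (-0.54, adjusted p 0.00024). Both were called in all 16 alternatives. ITGB4 overlaps GALK1. The kinases PRKCA and CSNK1E rose (0.45 and 0.33), and neither was called by DESeq2 or when either WT library was left out. Of this list 1 gene rose with DESeq2 or with either WT library left out, and 2 with the density and span trend removed.

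For comparison, of 12 genes of late 40S maturation 2 (16.7%) rose and 1 (8.33%) fell, with a median of 0.07. These shares are near the 10.0% higher and 12.9% lower over all genes tested. BYSL and TSR3 rose 1.57-fold and 1.56-fold, and AK6, which overlaps TAF9, fell (log2 fold change -0.76, edgeR's adjusted p 0.00138). BYSL overlaps MED20, and TSR3 overlaps BAIAP3. The call of AK6 ended without WT replicate 2 (-0.52, adjusted p 0.123). That of TSR3 ended without WT replicate 1 (0.55, adjusted p 0.0862), with DESeq2 (0.0754) and with the density and span trend removed (0.0601).

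**Figure D5:**
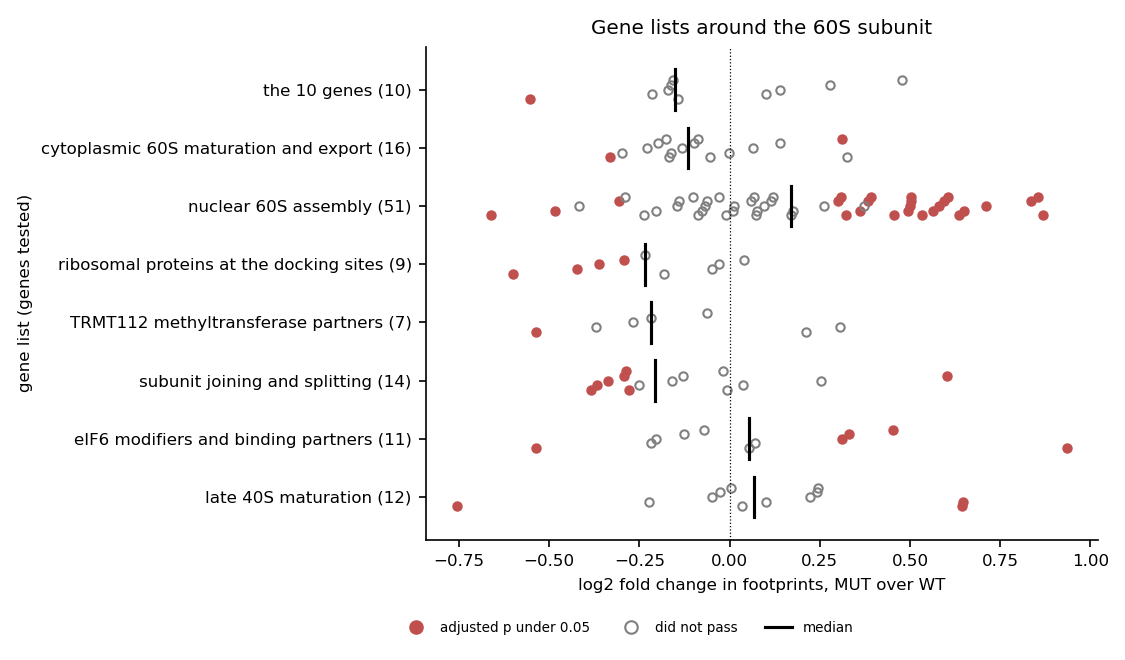
Log2 fold change in footprints of MUT over WT for each tested gene of the 10-gene group and of 7 gene lists, filled where the adjusted p was under 0.05, with the list's median as a bar. Filled points of the nuclear 60S assembly list lie mostly above 0 (22 of 25), and those of the ribosomal proteins all lie below 0. The lists were chosen with earlier results of these data known.

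By the root mean square difference of their centred log2 CPM over the 5 libraries, among 5873 genes with a mean of at least 50 CPM, the genes nearest to EIF6 were NEDD8-MDP1, MCM8 and API5 (0.0154 to 0.0158 log2 units). NEDD8-MDP1 is a read-through name that shares sequence with NEDD8. Nearest to RSL24D1 were C21orf91, PPA2 and SKP1 (0.0234 to 0.0294), with log2 fold changes of -0.53, -0.56 and -0.51. With 5 libraries such a match is a description of these profiles only.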

How the data were processed

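Ribosome footprints were measured in 3 MUT and 2 WT libraries. Per the labels' protocols, lysates were digested with MNase, and fragments came from the 80S monosome fraction. The deposited values are raw counts per gene, whole numbers that the authors did not normalize. The submitters' processing notes name STAR 2.5.2b, cutadapt 4.6, DESeq2 1.42.0, FastQC 0.12.1 and the hg38 build. Nothing further on counting (tool, annotation, strand, multi-mapping reads) was given in the sources used here. Columns were matched to samples by the codes in the table's header. No molecular identifiers are mentioned, so counting intervals cover counting error only.

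Tests on these counts used edgeR 4.0.16 in R 4.3.3 (filterByExpr with a minimum count of 10 and a minimum total of 15, TMM scaling, quasi-likelihood F test, 3 residual degrees of freedom, Benjamini-Hochberg over 11991 genes). Log2 fold changes are MUT over WT, standard errors come from the F statistic, and intervals are 95%. Alternatives used DESeq2 1.42.0 and limma 3.58.1. The replicate numbers 1 and 2 occur in both groups, and nothing in the labels says that they pair libraries. The trend fit removes from each library a smooth trend over gene span and over the number of protein-coding genes within 500 kb. RefSeq names (GRCh38.p14, the same chromosomes as hg38) matched 17253 of 17297 genes.

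The 10 genes and all lists were chosen with earlier results of these data known. Named genes are the 10, and up to 4 of lowest p among the called genes of each list (2 where none passed), with EEF2, RPL24, RPLP0 and RPL23, and the 3 genes nearest in profile to EIF6 and RSL24D1. Levels per coding length, planned earlier, were not made, since coding lengths were not used here.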

Additional observations from a re-analysis of the deposited data

How the results depend on the processing

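RSL24D1 was lower and called in all 16 alternatives, and of the other 9 genes of the group only NMD3 changed sign, at 0.0086 without WT replicate 2 (-0.38 without WT replicate 1). Of the 10 genes, the number called higher was 0 as reported, 1 under upper-quartile scaling, 2 using library size only, 2 under the replicate block and 2 with the density and span trend removed. It was 0 to 1 when single libraries were left out. The number called lower was 1 as reported, 2 in libraries thinned to the smallest, where NMD3 passed (-0.33, adjusted p 0.0422), 3 with the trend removed, and 1 to 2 without single libraries. Over all genes, DESeq2 called 519 higher and 846 lower, and leaving out single libraries gave 509 to 1089 higher and 732 to 1339 lower. Where a WT library was left out, the other was taken to vary as the MUT libraries do.

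The replicate block called LSG1 (0.31, edgeR's adjusted p 0.0253) and ZNF622 (0.57, edgeR's adjusted p 0.0159). That fit gives each replicate number its own term. MUT replicate 3 has no WT library of its number, so it adds nothing to these fold changes. They rest on replicates 1 and 2 of each group, with fewer residual degrees of freedom than the 3 of the reported fit. Over all genes the block called 1529 higher and 1909 lower, against 1203 and 1544 as reported. Deviations of same-numbered libraries correlated across genes at 0.0793 (replicate 1) and 0.148 (replicate 2). WT replicate 1 correlated with MUT replicates 2 and 3 at -0.148 and 0.0624. WT replicate 2 gives the same values with opposite signs, because deviations of 2 libraries from their mean mirror each other. These are thus not separate checks, and the numbers neither establish nor exclude pairs. Under the block, 2 genes fell in the cytoplasmic list, 2 among the TRMT112 partners and 2 among the eIF6 partners, whose median was 0.014.

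For the cytoplasmic list, the median was -0.070 (upper quartile), -0.044 (library size only), -0.081 (thinned) and -0.072 (trend removed). The number that rose was 2 with library size only and thinned, and 0 with DESeq2 and trend removed. Without single libraries 0 to 1 rose, 0 to 1 fell, and the median was -0.15 to -0.063. For nuclear 60S assembly, the median was 0.21 (upper quartile), 0.24 (library size only) and 0.20 (trend removed), 14 rose with DESeq2, and 11 to 20 rose without single libraries. Of the ribosomal proteins 2 fell with DESeq2 and 0 to 5 without single libraries, with medians of -0.35 to -0.13. Of the TRMT112 partners 2 fell with the robust fit, and 1 rose and 2 fell with the trend removed. Their median was -0.15 (library size only), -0.094 (trend removed) and -0.26 to -0.11 (single libraries left out). For subunit joining, 2 rose and 3 fell under upper-quartile or library-size scaling (medians -0.16 and -0.13), and 1 to 5 fell without single libraries (medians -0.28 to -0.18). For eIF6 partners, 1 rose with DESeq2, 2 with the trend removed and 1 to 4 without single libraries, where 1 to 2 fell. Their median was 0.10 (upper quartile), 0.13 (library size only), -0.0058 (DESeq2), 0.0025 (no filter), -0.076 (trend removed) and -0.0095 to 0.047 (single libraries left out). For late 40S maturation, 1 rose with DESeq2, the medians were 0.14 (library size only) and 0.16 (trend removed), and without single libraries 1 to 3 rose and 0 to 1 fell (medians 0.045 to 0.18).

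EFL1 per EIF6 had no stable sign, at -0.000557 with 0.5 added, -0.15 thinned, -0.084 without WT replicate 2, -0.073 without MUT replicate 1 and 0.087 without WT replicate 1. Leaving out WT replicate 1 gave -0.0029 for MRTO4 per RPLP0, and leaving out WT replicate 2 gave 0.40. EEF2 was at -0.059 with the trend removed, -0.0040 without WT replicate 2 and 0.28 without WT replicate 1. RPLP0 was at 0.026 with library size only, and between -0.14 and 0.045 with single libraries left out. The cause of these shifts was not tested. The trend of coding length was not run, since coding lengths were not used here. Depth limits ZNF622 and EFL1 most, with at most 136 and 106 counts per library.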
